A study of Mus musculus with 12 samples.

Results

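The transcripts of 8 enzymes of cholesterol synthesis, Hmgcs1, Idi1, Fdps, Fdft1, Sqle, Lss, Cyp51 and Dhcr7, were followed across 12 libraries of CD11b-positive cells from the mouse cerebral cortex. The enzymes were taken by name from a table of raw read counts for 55487 genes, listed by Ensembl identifier and matched to symbols in the annotation of the GRCm38 genome. All 8 were among the 15425 genes that passed a filter on low counts, and each had at least 36 reads in every library, with a highest count of 1837 for Hmgcs1. Male WT (C57BL/6J) and App NL-G-F animals were used, and 3 libraries, each of another mouse, made up each of the groups WT veh, WT BRICHOS, App NL-G-F veh and App NL-G-F BRICHOS. App NL-G-F mice carry a knocked-in App gene with a humanized amyloid-β sequence and familial Alzheimer's disease mutations in every cell that uses the App promoter. From 9 months of age, each mouse received 24 intravenous injections over 12 weeks. The veh groups were given PBS, and the BRICHOS groups 10 mg/kg of rh Bri2 BRICHOS R221E, a recombinant variant of the chaperone domain of the human Bri2 protein. The cells were collected 4 weeks after the last injection, from papain-digested cortex with magnetic beads against CD11b, an integrin chain found on microglia and on other cells of the myeloid lineage.

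Cholesterol is made in a chain of enzyme steps from acetyl-CoA. The first stage, the mevalonate pathway, ends in farnesyl diphosphate, the branch point from which sterols, ubiquinone, dolichol and the lipid anchors of prenylated proteins are made. In the second stage, farnesyl units are joined to squalene, which is oxidized and closed to lanosterol, and in the last stage lanosterol is trimmed and reduced to cholesterol. Most genes of the chain are known targets of the transcription factor SREBP2 (gene Srebf2), which is released from the endoplasmic reticulum when its membrane holds little cholesterol, whereas LXR receptors respond to oxysterols and turn on genes of cholesterol export. The brain makes nearly all of its own cholesterol, astrocytes and oligodendrocytes being its main producers in the adult, and microglia take up lipoproteins and myelin debris.

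Hmgcs1 (ENSMUSG00000093930, chr13:119690379-119708260, + strand), Idi1 (ENSMUSG00000058258, chr13:8885501-8892451, +), Fdps (ENSMUSG00000059743, chr3:89093588-89101959, −), Fdft1 (ENSMUSG00000021273, chr14:63145150-63179578, −), Sqle (ENSMUSG00000022351, chr15:59315077-59331192, +), Lss (ENSMUSG00000033105, chr10:76531588-76557138, +), Cyp51 (ENSMUSG00000001467, chr5:4081145-4104746, −) and Dhcr7 (ENSMUSG00000058454, chr7:143823145-143848410, +) lie on 7 chromosomes, with Hmgcs1 and Idi1 both on chromosome 13. A read was counted on the exons of its gene, and 6 of the 8 genes share exon bases with an annotated neighbour. Fdft1 shares 774 exon bases with Ctsb, the gene of the lysosomal protease cathepsin B on the opposite strand, Cyp51 shares 166 with Akap9 on the opposite strand, and Fdps shares 1124 with Gm43738 on its own strand. The libraries were made with a stranded kit, but the strand setting of the counting and its treatment of shared reads were not stated, so a part of the reads of these genes may have been lost to or taken from the neighbour.

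Promoter sequences were compared because the enzymes moved together between the strains. RefSeq windows of GRCm38.p6, from 250 bases before to 50 bases after a start site, were found for Hmgcs1, Idi1, Lss, Cyp51 and Dhcr7, and 3 of these are printed 5′ to 3′ on the strand of the gene: that of Hmgcs1, which holds the sterol element that was searched for, that of Cyp51, the enzyme with the widest difference between the strains, and that of Lss, the enzyme with the narrowest. Capitals mark the letters TCACNCCAC, a form of the sterol regulatory element to which SREBP proteins bind, and CCAAT, the box of the factor NF-Y, which read ATTGG where the match is on the other strand.
Hmgcs1 (chr13:119690101-119690400, +): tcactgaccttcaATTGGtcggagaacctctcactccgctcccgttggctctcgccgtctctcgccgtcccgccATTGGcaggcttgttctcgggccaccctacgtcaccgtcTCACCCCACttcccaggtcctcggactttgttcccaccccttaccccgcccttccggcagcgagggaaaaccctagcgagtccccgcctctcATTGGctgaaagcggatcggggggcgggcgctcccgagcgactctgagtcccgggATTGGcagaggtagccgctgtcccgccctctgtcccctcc
Cyp51 (chr5:4104648-4104947, −): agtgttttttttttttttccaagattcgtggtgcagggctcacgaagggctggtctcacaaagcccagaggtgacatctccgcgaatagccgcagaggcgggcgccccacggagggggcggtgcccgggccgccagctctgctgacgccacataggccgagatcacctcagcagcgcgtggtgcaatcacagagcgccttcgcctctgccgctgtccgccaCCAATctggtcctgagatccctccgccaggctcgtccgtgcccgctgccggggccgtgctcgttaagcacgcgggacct
Lss (chr10:76531355-76531654, +): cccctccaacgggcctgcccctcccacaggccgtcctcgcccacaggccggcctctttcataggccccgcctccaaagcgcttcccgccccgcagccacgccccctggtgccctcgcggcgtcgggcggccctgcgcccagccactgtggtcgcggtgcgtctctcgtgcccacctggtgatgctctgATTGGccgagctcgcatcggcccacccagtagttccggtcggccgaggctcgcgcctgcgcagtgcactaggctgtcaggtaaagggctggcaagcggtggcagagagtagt
TCACNCCAC was found on either strand in 1.24% of 32851 promoter windows and in 1 of the 5 enzymes with a window, Hmgcs1, as TCACCCCAC, 137 bases before the start site. CCAAT was found in 37.4% of windows and in 5 of the 7 windows of these enzymes, and GGGCGG, the GC box of Sp1, in 35.7% of windows and in 6 of the 7. Counted by gene, with a match in any window, CCAAT was found in 41.1% of genes and the GC box in 38.2%, and each in all 5 enzymes. The Hmgcs1 window held CCAAT 4 times, the Lss and Cyp51 windows once each. These matches describe the letters of the windows, and binding was not measured.

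Per length of exon, Hmgcs1 had the highest level of the 8 enzymes, with a mean over the 12 libraries of 18.01 reads per kilobase of exon and 1000000 reads (RPKM), followed by Cyp51 with 9.19, Dhcr7 with 6.82, Fdft1 with 4.71, Sqle with 2.45, Lss with 1.72, Idi1 with 1.17 and Fdps with 0.967. In RPKM, Hmgcs1 was above the other 7 in every library. The order of some neighbours was not the same in all groups. Cyp51 and Dhcr7 were alike in WT BRICHOS mice, at 4.11 to 5.82 and 4.28 to 5.003 RPKM, but did not overlap in App NL-G-F veh mice, at 12.0 to 13.7 and 8.62 to 9.02 RPKM. Sqle and Lss overlapped in WT veh mice, at 1.16 to 1.98 and 1.44 to 1.68 RPKM, and Idi1 and Fdps overlapped there too, at 0.723 to 0.812 and 0.586 to 0.797 RPKM. All exons of all annotated transcripts enter the length, which is 10787 bases for Lss and between 3505 and 5817 bases for the others, so the value of Lss in particular may be understated. The 8 enzymes together took 0.0160% to 0.0187% of the counts of a WT library and 0.0248% to 0.0286% of those of an App NL-G-F library.

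The main difference lay between the strains. In veh-treated mice, 6 of the 8 enzymes were higher in App NL-G-F than in WT mice at an adjusted p-value under 0.05 (edgeR quasi-likelihood test, Benjamini-Hochberg over all 15425 genes), and in BRICHOS-treated mice 6 of 8 were higher as well. The log2 fold change of all 8 was above 0 in both comparisons. Over all tested genes, 20.1% were called higher and 16.9% lower in the first comparison, and 20.8% and 21.8% in the second, so that many genes of every kind differed between the strains. The median log2 fold change of the 8 enzymes was 0.88 in veh-treated and 0.75 in BRICHOS-treated mice, beside medians over all genes of -0.02 and -0.04. For 6 enzymes, Hmgcs1, Idi1, Fdft1, Sqle, Cyp51 and Dhcr7, each of the 6 App NL-G-F libraries was above each of the 6 WT libraries, which held for 16.8% of all genes. The libraries of these comparisons do not overlap, but all were normalized and fitted together. The values that follow are counts per 1000000 reads (CPM) normalized with TMM factors, listed for mice 1, 2 and 3 of a group.

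**Figure D1:**
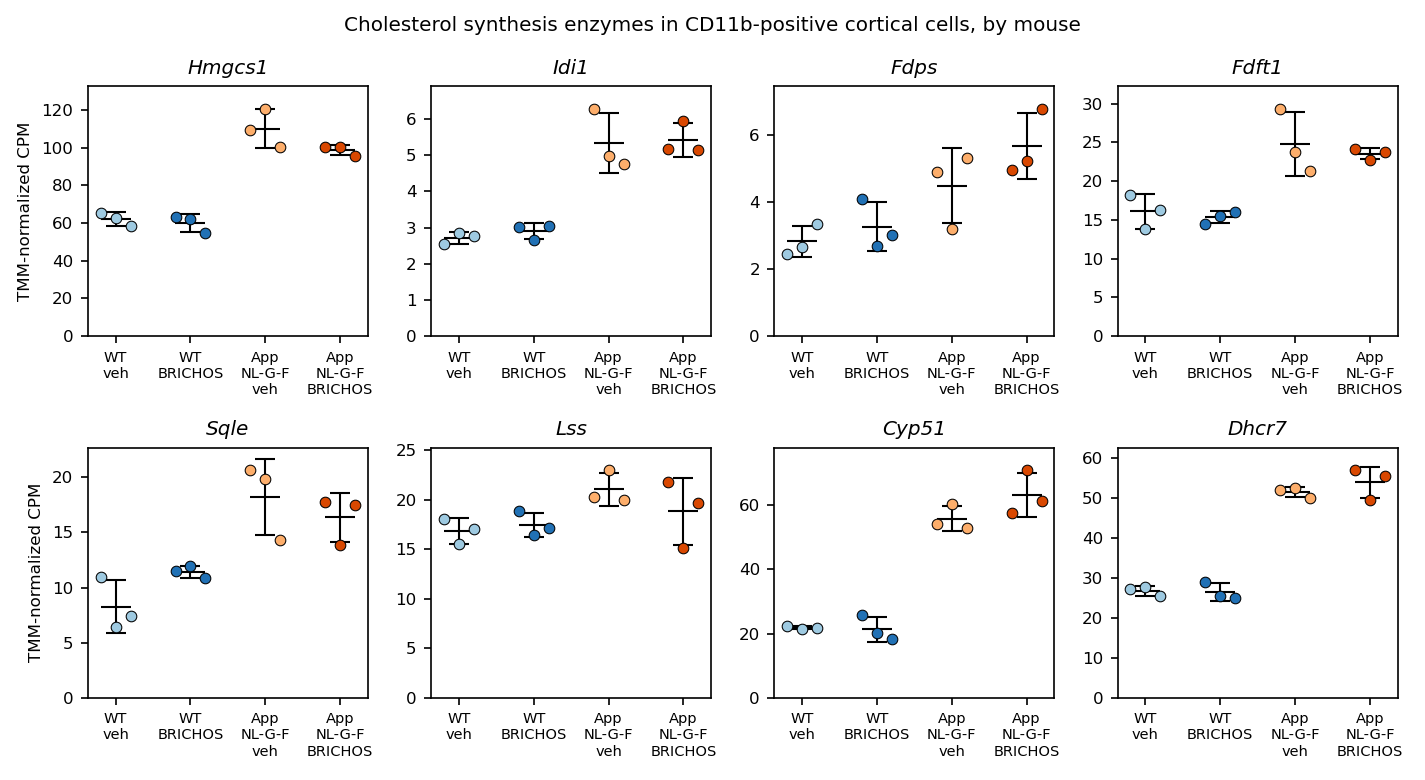
TMM-normalized CPM (y axis, from 0) of the 8 enzymes in each of the 12 mice (points), by group (x axis), with the mean (long bar) and SD (whiskers) of 3 mice. For Hmgcs1, Idi1, Fdft1, Sqle, Cyp51 and Dhcr7, the 6 App NL-G-F mice lie above the 6 WT mice, whereas the groups overlap for Fdps and Lss.

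Of the mevalonate pathway enzymes, Hmgcs1, the cytosolic synthase that makes HMG-CoA, was at 65.4, 62.7 and 58.2 CPM in WT veh mice and at 109, 121 and 100.3 CPM in App NL-G-F veh mice. With BRICHOS it was at 63.3, 62.2 and 54.7 CPM in WT and at 100.4, 100.2 and 95.6 CPM in App NL-G-F mice. The strains did not overlap under either treatment, and the WT groups lay on top of each other. The log2 fold change between the strains was 0.83 (SE 0.0776, adjusted p = 8.31e-06) with veh and 0.72 (SE 0.0775, adjusted p = 2.32e-05) with BRICHOS, that is 1.77-fold and 1.64-fold.

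Idi1, the isomerase that interconverts the isoprene building blocks, was much less abundant, at 2.53, 2.85 and 2.76 CPM in WT veh mice and 6.28, 4.99 and 4.74 CPM in App NL-G-F veh mice. In BRICHOS-treated mice it was at 3.02, 2.65 and 3.03 CPM in WT and 5.16, 5.95 and 5.14 CPM in App NL-G-F. The highest WT value, 3.03 CPM, stayed below the lowest App NL-G-F value, 4.74 CPM. The log2 fold change was 0.97 (SE 0.163, adjusted p = 0.000686) with veh and 0.90 (SE 0.160, adjusted p = 0.000912) with BRICHOS.

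Fdps, which makes farnesyl diphosphate, was measured with the fewest reads. It was at 2.47, 2.67 and 3.35 CPM in WT veh mice and at 4.92, 3.22 and 5.33 CPM in App NL-G-F veh mice, where mouse 2 fell within the range of WT. With BRICHOS, the levels of 4.09, 2.70 and 3.03 CPM in WT and 4.97, 5.25 and 6.80 CPM in App NL-G-F did not overlap. The log2 fold change of 0.67 with veh (SE 0.244, 95% confidence interval 0.13 to 1.20) had an adjusted p of 0.0510 and did not pass, and the 0.79 with BRICHOS (SE 0.237) passed with an adjusted p of 0.0190. Both outcomes changed when single libraries were left out. The first passed without App NL-G-F veh mouse 2 (0.86, adjusted p = 0.0198) and without WT BRICHOS mouse 1 (0.66, adjusted p = 0.0432). With all libraries, it also passed with at least 10 counts in every library (0.66, adjusted p = 0.0451) and with replicate number as block (0.65, adjusted p = 0.0406). The second was 0.67 without WT BRICHOS mouse 2 (adjusted p = 0.0740), 0.74 without its mouse 3 (adjusted p = 0.0585) and 0.65 without App NL-G-F BRICHOS mouse 3 (adjusted p = 0.0748).

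In the stage from farnesyl diphosphate to lanosterol the enzymes differed from each other. Fdft1, squalene synthase and the first enzyme committed to sterols, was at 18.2, 13.8 and 16.3 CPM in WT veh mice and 29.3, 23.7 and 21.3 CPM in App NL-G-F veh mice. With BRICHOS it was at 14.5, 15.4 and 16.0 CPM in WT and 24.1, 22.7 and 23.7 CPM in App NL-G-F. The strains were apart under both treatments, with nearly the same log2 fold change, 0.62 (SE 0.126, adjusted p = 0.00244) and 0.62 (SE 0.126, adjusted p = 0.00214). Its exon neighbour Ctsb was far more abundant and differed in the same direction, with 3045 ± 115 CPM in WT veh mice and 9765 ± 297 CPM in App NL-G-F veh mice (SD, n = 3), and a part of it in the counts of Fdft1 was not tested.

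Sqle, squalene epoxidase, which catalyses a rate-limiting step of the sterol branch, was at 11.0, 6.41 and 7.38 CPM in WT veh mice and 20.7, 19.8 and 14.3 CPM in App NL-G-F veh mice. The levels were 11.5, 11.9 and 10.9 CPM in WT BRICHOS mice and 17.8, 13.8 and 17.5 CPM in App NL-G-F BRICHOS mice. The strains did not overlap under either treatment, but they lay closer together with BRICHOS. The log2 fold change was 1.15 with veh (SE 0.199, adjusted p = 0.000892) and 0.52 with BRICHOS (SE 0.195, 95% confidence interval 0.09 to 0.94, adjusted p = 0.0507). The latter was on the edge of the threshold, and DESeq2's Wald test gave 0.54 with an adjusted p of 0.0277. It was called by edgeR when the BRICHOS groups were fitted alone (0.52, adjusted p = 0.0166) and with DESeq2's size factors (0.54, adjusted p = 0.0414). The same held without a filter (0.53, adjusted p = 0.0363) and with an oligodendrocyte marker score as covariate (0.56, adjusted p = 0.0396). An astrocyte marker score as covariate, or at least 10 counts in every library, left it uncalled. Of the single omissions, edgeR called it without App NL-G-F BRICHOS mouse 2 (0.63, adjusted p = 0.0373) and without App NL-G-F veh mouse 3 (0.52, adjusted p = 0.0343). It was also called without WT veh mouse 1 (0.52, adjusted p = 0.0196) or mouse 2 (0.52, adjusted p = 0.0379), but in no other omission.

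Lss, lanosterol synthase, which closes the ring system, was the enzyme with the smallest differences. It was at 18.1, 15.5 and 17.0 CPM in WT veh mice, 20.3, 23.0 and 19.9 CPM in App NL-G-F veh mice, 18.8, 16.4 and 17.1 CPM in WT BRICHOS mice and 21.8, 15.1 and 19.6 CPM in App NL-G-F BRICHOS mice. The veh groups did not overlap, yet the log2 fold change of 0.32 (SE 0.128, 95% confidence interval 0.04 to 0.60) had an adjusted p of 0.0677. It was 0.32 without App NL-G-F BRICHOS mouse 1 (adjusted p = 0.0499) and 0.32 without its mouse 2 (adjusted p = 0.0236), libraries that are not in the comparison but enter the shared estimate of the spread. It was also called when the 2 veh groups were fitted alone (0.32, adjusted p = 0.0385) and with the oligodendrocyte covariate (0.44, adjusted p = 0.0360). With BRICHOS the strains overlapped, and the difference was 0.11 (95% confidence interval -0.17 to 0.39, adjusted p = 0.513), or -0.0046 without App NL-G-F BRICHOS mouse 1. The Lss interval with veh ends below the whole intervals of Hmgcs1, Idi1, Sqle, Cyp51 and Dhcr7, although a difference between enzymes was not tested.

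The 2 enzymes that act after lanosterol showed the clearest strain difference. Cyp51, the lanosterol 14α-demethylase, was at 22.4, 21.3 and 21.8 CPM in WT veh mice and 54.3, 60.3 and 53.1 CPM in App NL-G-F veh mice. With BRICHOS it was at 25.7, 20.3 and 18.1 CPM in WT and 57.5, 71.0 and 61.3 CPM in App NL-G-F. The lowest App NL-G-F mouse, at 53.1 CPM, was above the highest WT mouse, at 25.7 CPM, and the log2 fold change was 1.36 (SE 0.120, adjusted p = 4.94e-06) with veh and 1.57 (SE 0.120, adjusted p = 1.36e-06) with BRICHOS, or 2.56-fold and 2.96-fold. Dhcr7, the reductase that makes cholesterol from 7-dehydrocholesterol, was at 27.3, 27.8 and 25.4 CPM in WT veh mice and 51.9, 52.4 and 50.2 CPM in App NL-G-F veh mice. With BRICHOS it was at 29.1, 25.5 and 24.9 CPM in WT and 57.0, 49.5 and 55.4 CPM in App NL-G-F. The replicates of Dhcr7 were the closest to each other in App NL-G-F veh mice, and its log2 fold change was 0.94 (SE 0.0767, adjusted p = 2.70e-06) with veh and 1.03 (SE 0.0764, adjusted p = 1.11e-06) with BRICHOS.

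**Figure D2:**
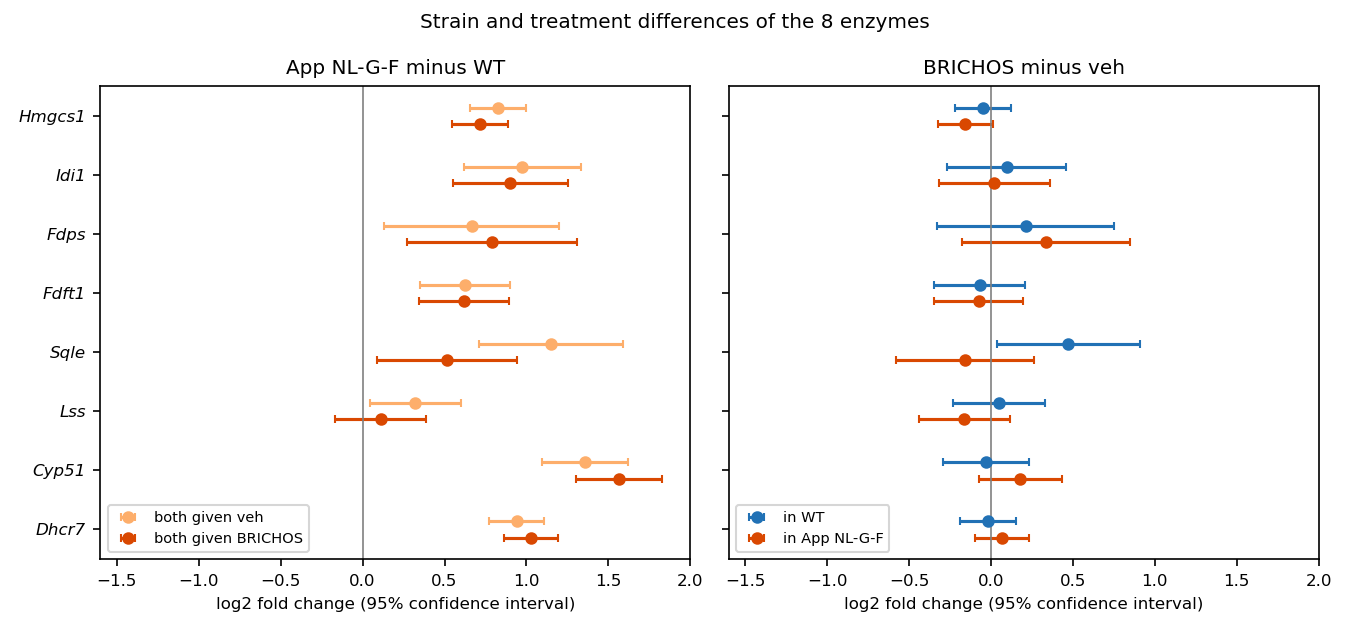
Log2 fold change (x axis) of each of the 8 enzymes (y axis, in pathway order) with its 95% confidence interval from the edgeR fit, of App NL-G-F over WT mice under each treatment (left) and between BRICHOS- and veh-treated mice of each strain (right). The strain differences of all 8 enzymes lie above 0 under both treatments, from 0.11 for Lss to 1.57 for Cyp51, and the intervals of the treatment differences include 0 except for Sqle in WT mice.

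Transcripts of other brain cells differed between the libraries too. The summed level of 8 microglia markers was between 28608 and 33489 CPM in all 12 libraries, although all 8 were called between the strains, 3 higher and 5 lower in App NL-G-F mice under each treatment. That of 8 astrocyte markers, led by Slc1a2 and Slc1a3, was 427 to 603 CPM in WT veh mice, 428 to 781 CPM in WT BRICHOS mice, 1405 to 4509 CPM in App NL-G-F veh mice and 653 to 1887 CPM in App NL-G-F BRICHOS mice, with 8 of 8 markers called higher in App NL-G-F mice with veh and 1 of 8 with BRICHOS. The 8 oligodendrocyte markers, Mbp among them, summed to 4170 to 17020 CPM in WT and 3254 to 6242 CPM in App NL-G-F libraries, and 2 of the 8 were called lower in App NL-G-F mice with veh by edgeR. In bulk samples such as these, a change in the number of cells of a type and a change in RNA per cell cannot be told apart.

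The enzyme differences were set beside the astrocyte markers directly. In App NL-G-F BRICHOS mouse 2, the astrocyte sum of 653 CPM was within the WT range, while 1 of the 8 markers, Gfap, at 130 CPM, was above every WT library, where it reached 38.7 CPM. In this single mouse, 7 of the 8 enzymes were above every WT library, Lss being the exception. The share of all genes above every WT library in this mouse was not determined, so this count has no background beside it. With the astrocyte score as a covariate, 3 enzymes remained called between the veh groups, Hmgcs1, Cyp51 and Dhcr7, whereas Idi1 was at 0.96 (adjusted p = 0.0625), Fdft1 at 0.29 (adjusted p = 0.421) and Sqle at 0.54 (adjusted p = 0.284). Over all genes, that covariate took the calls between the veh groups from 5710 to 1916. Between the BRICHOS groups, the same covariate left 6 of 8 called, a count that has no background over all genes beside it. A check added after the data were seen left out the 2 libraries richest in astrocyte markers, App NL-G-F veh mice 1 and 2. The log2 fold change between the veh strains was then smaller, 0.41 in place of 0.62 for Fdft1 and 0.80 in place of 1.15 for Sqle. With 1 App NL-G-F veh library left, only these effect sizes are given for the 2 enzymes. The remaining App NL-G-F veh library was there assumed to vary like the other groups.

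**Figure D3:**
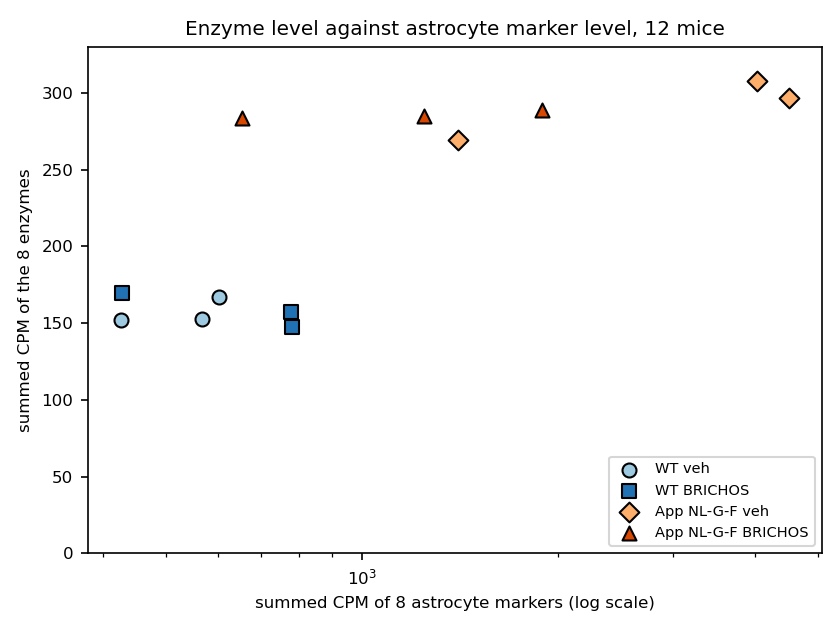
Summed TMM-normalized CPM of the 8 enzymes (y axis, from 0) against that of 8 astrocyte markers (x axis, log scale) in the 12 mice, 1 point each, with a symbol for each group. The enzymes sum to between 148 and 170 CPM in WT and between 269 and 308 CPM in App NL-G-F mice. The latter range includes 1 mouse, App NL-G-F BRICHOS mouse 2, whose astrocyte sum, 653 CPM, lies in the WT range, although Gfap alone does not. In this mouse, Hmgcs1 (100.2 CPM), Cyp51 (71.0 CPM) and Dhcr7 (49.5 CPM) make up most of the enzyme sum of 283 CPM. The sum therefore says little of the other enzymes, such as Sqle at 13.8 CPM.

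Treatment with BRICHOS was not accompanied by a called difference of any of the 8 enzymes. In App NL-G-F mice, 0 of 8 were called by edgeR, 0 by DESeq2's Wald test and 0 at an unadjusted p under 0.05, against a background of 0.00648% of all genes, 1 gene, that was called and 10.8% at an unadjusted p under 0.05. The log2 fold changes ran from -0.16 for Lss to 0.34 for Fdps, with a median of -0.03, and the groups overlapped for all 8, whereas 13.5% of all genes had no overlap. Hmgcs1 was lower by 10.3% with an interval that ended just above 0 (log2 fold change -0.16, 95% confidence interval -0.32 to 0.01, adjusted p = 0.505). The intervals limit the changes that these data leave possible. For Dhcr7 the interval was -0.10 to 0.23, for Fdft1 -0.35 to 0.20 and for Cyp51 -0.07 to 0.43, whereas those of Fdps, -0.18 to 0.85, and Sqle, -0.58 to 0.26, still held sizable changes.

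In WT mice, 0 of 8 enzymes were called by edgeR or DESeq2 between the treatments, and 1, Sqle, had an unadjusted p under 0.05, which 11.4% of all genes had. The background of calls at an adjusted p under 0.05 was 0%. Sqle was 1.39-fold higher with BRICHOS (log2 fold change 0.47, SE 0.200, adjusted p = 0.407, edgeR), and WT veh mouse 1 lay among the treated mice while mice 2 and 3 lay below them all. The other 7 differed by -0.07 to 0.21 on the log2 scale, with the median of all 8 at 0.02. The interval was -0.22 to 0.12 for Hmgcs1, -0.30 to 0.23 for Cyp51 and -0.19 to 0.15 for Dhcr7.

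The fit that gave these values also gave the contrast of the treatment differences between the strains. Of the 8 enzymes, 0 were called by edgeR or DESeq2, with 0.00648% of all genes called by edgeR, and 1 had an unadjusted p under 0.05, which 14.8% of all genes had. That enzyme was again Sqle, with a difference of -0.63 (SE 0.278, 95% confidence interval -1.24 to -0.02, adjusted p = 0.324), which did not pass the correction. The mean of Sqle was 8.25 CPM in WT veh and 11.4 CPM in WT BRICHOS mice, and 18.3 CPM in App NL-G-F veh and 16.4 CPM in App NL-G-F BRICHOS mice. The contrast was -0.47 without WT veh mouse 2 and -0.89 without WT veh mouse 1, and with the 2 libraries richest in astrocyte markers left out it was -0.27 (adjusted p = 0.886). For the other 7 enzymes it lay between -0.21 for Lss and 0.21 for Cyp51.

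Within groups, the enzymes varied to different degrees and only partly together. The coefficient of variation within groups was 20.2% for Fdps, 16.5% for Sqle and between 5.71% and 10.2% for the other 6. In the mean over the 8, where opposite deviations cancel, the deviation from the group means was between -0.09 and 0.12 on the log2 scale in every library, the highest in WT BRICHOS mouse 1, where 7 of 8 were above their group mean. Over the 28 pairs of enzymes, Pearson's r between the deviations in 12 libraries had a median of 0.13 and ranged from -0.55 to 0.79, with 17 pairs above 0. Dhcr7 followed the mean of the other 7 the most, with r of 0.53, and Fdps went slightly against it, with r of -0.15. The 5 other genes whose deviations were most like the mean of the 8 enzymes were G430095P16Rik (r = 0.957), B230118H07Rik (r = 0.945), Rem1 (r = 0.944), Wdr75 (r = 0.927) and Dennd2a (r = 0.917), out of 15417 genes ranked over 12 libraries. Of 56 genes of sterol and fatty acid metabolism on the lists used here, 2 were among the first 50, Srebf1 at rank 11 (r = 0.902) and Srebf2 at rank 20 (r = 0.872). With deviations taken from strain means in place of group means, r of these 5 genes was between 0.303 and 0.849. These correlations describe 12 libraries that share depth and preparation, and small deviations from few points give high values for some of many genes.

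**Figure D4:**
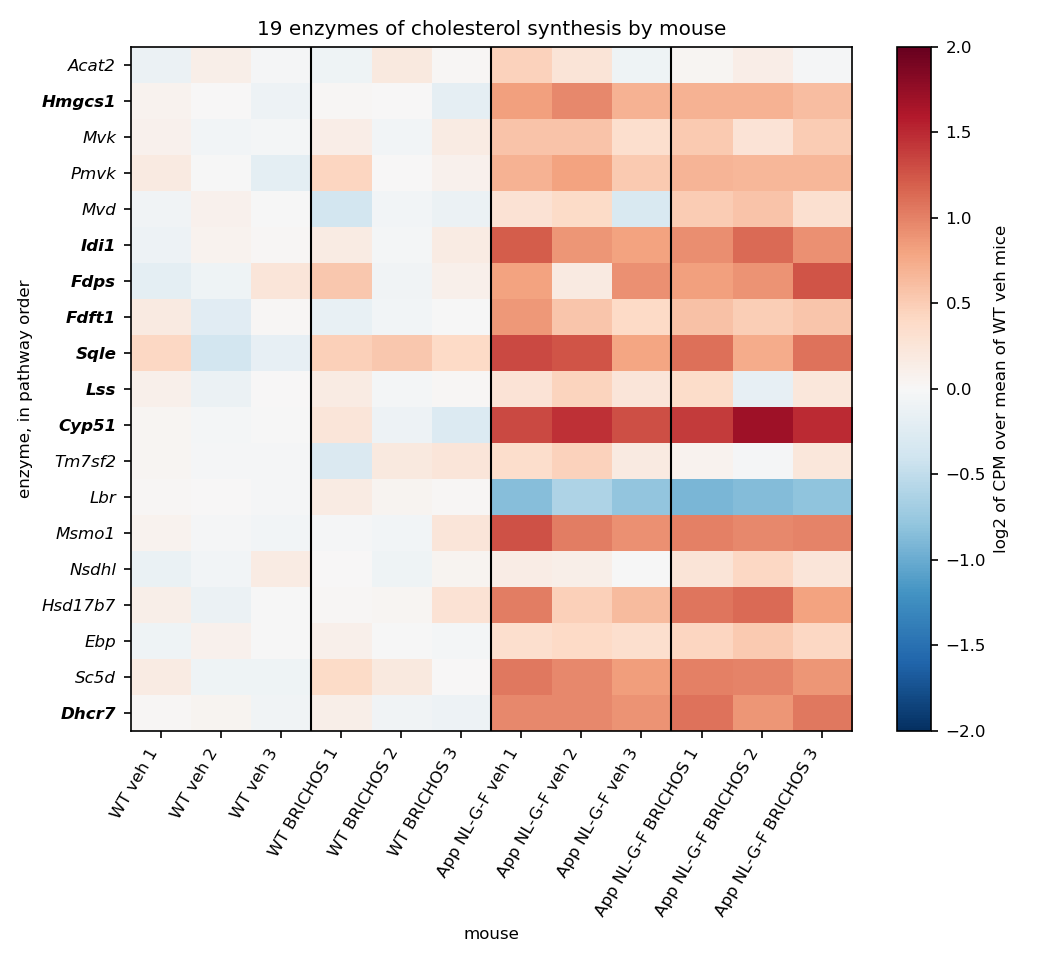
Log2 ratio of the TMM-normalized CPM of each library to the mean of the WT veh mice (colour) for 19 enzymes of cholesterol synthesis in pathway order (rows, with the 8 followed here in bold) in the 12 mice (columns, black lines between groups). The rows of Hmgcs1, Idi1, Fdft1, Sqle, Cyp51 and Dhcr7 are red in all 6 App NL-G-F columns, in each of which these enzymes are above every WT library, and Lbr is blue in all of them.

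The rest of the pathway was read from a list of 13 further enzymes. In veh-treated mice, 8 were higher and 1 was lower in App NL-G-F mice, with a median log2 fold change of 0.49, and in BRICHOS-treated mice 9 were higher and 1 was lower, with a median of 0.43. Over all genes, 20.1% were called higher and 16.9% lower with veh, and 20.8% and 21.8% with BRICHOS. Msmo1, the C4-methylsterol oxidase, rose by 1.08 and 0.92, and Sc5d, the lathosterol oxidase just before Dhcr7, by 0.95 and 0.75, each with an adjusted p of at most 0.000117. The gene that fell was Lbr, from 43.2 ± 0.790 to 25.7 ± 2.10 CPM with veh (log2 fold change -0.75, adjusted p = 8.66e-06) and to a similar extent with BRICHOS (-0.94, adjusted p = 1.20e-06). Its product is both a sterol C14 reductase and the lamin B receptor of the inner nuclear membrane. Tm7sf2, the other C14 reductase, was among the genes not called, at 0.34 (adjusted p = 0.108) and 0.02 (adjusted p = 0.917), and was named after its values were seen. The count of 9 called with veh fell to 5 with the astrocyte covariate, while the calls over all 15425 genes fell from 5710 to 1916. With the same covariate, the 10 called with BRICHOS became 9, a count that has no background over all genes beside it.

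The same 13 enzymes gave 0 calls between the treatments in either strain, by edgeR or by DESeq2. At an unadjusted p under 0.05, 2 differed in App NL-G-F mice, one of them Nsdhl (log2 fold change 0.22, adjusted p = 0.427), beside 10.8% of all genes, and 0 in WT mice, beside 11.4%, Nsdhl being named after its values were seen. The contrast between the strains reached an unadjusted p under 0.05 for 1 of the 13, beside 14.8% of all genes, and 0 were called by edgeR or DESeq2.

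Among 10 genes that sense sterols or control the pathway, 3 were higher in App NL-G-F mice with veh and 5 with BRICHOS, and 0 were lower by edgeR or DESeq2, nor at an unadjusted p under 0.05. Of all genes, 20.1% and 20.8% were called higher. Srebf2 was at 85.0, 76.7 and 76.7 CPM in WT veh mice and 162, 165 and 145 CPM in App NL-G-F veh mice, and its log2 fold change was 0.99 (adjusted p = 8.42e-07), or 0.88 with BRICHOS (adjusted p = 1.88e-06). Insig1, which holds the SREBP proteins in the endoplasmic reticulum and is itself an SREBP target, rose by 1.13 (adjusted p = 0.000568) and 1.19 (adjusted p = 0.000300). Srebf1, whose main product drives fatty acid synthesis, rose by 0.81 (adjusted p = 7.20e-06) with veh and by 0.43 (adjusted p = 0.000705) with BRICHOS. The treatment contrast between the strains of Srebf1 was -0.37 (adjusted p = 0.176), which did not pass. With BRICHOS, Nr1h2, the gene of LXRβ, was higher as well, by 0.20 (adjusted p = 0.0220), a call that was lost without WT BRICHOS mouse 1 (0.19, adjusted p = 0.0573) or mouse 2 (0.19, adjusted p = 0.0696) or App NL-G-F BRICHOS mouse 2 (0.13, adjusted p = 0.0593).

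Genes of sterol uptake and transfer were mostly higher in App NL-G-F mice. Of 7 tested, 6 were higher in App NL-G-F mice with veh and 7 with BRICHOS, with medians of 0.98 and 1.12, beside 20.1% and 20.8% of all genes that were called higher. Stard4, a sterol carrier, rose by 1.29 with veh (adjusted p = 1.57e-05), and with BRICHOS from 13.2 ± 1.46 to 27.7 ± 3.15 CPM. Npc2 and Lipa, which free cholesterol in the lysosome, rose by 1.23 and 0.98 with veh and by 1.45 and 1.14 with BRICHOS, each with an adjusted p of at most 1.59e-07. Scarb1, a scavenger receptor for HDL, rose by 1.12 with BRICHOS (adjusted p = 9.20e-06), and with veh from 37.4 ± 3.85 to 73.0 ± 7.47 CPM.

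Among 7 genes of cholesterol export, storage and oxidation the directions were mixed, with 3 higher and 2 lower in App NL-G-F mice with veh and 2 higher and 2 lower with BRICHOS. Of all genes, 20.1% were called higher and 16.9% lower with veh, and 20.8% and 21.8% with BRICHOS. Soat1, which esterifies cholesterol for storage, rose by 1.23 in both comparisons (adjusted p = 5.91e-08 and 4.77e-08), and Ch25h, the cholesterol 25-hydroxylase that makes an oxysterol, rose from 3.09 ± 1.89 to 66.7 ± 18.7 CPM with veh (log2 fold change 4.46, adjusted p = 3.37e-06). With BRICHOS, the log2 fold change of Ch25h was 4.25. Abca1, the LXR target that exports cholesterol to apolipoproteins, fell by 0.32 (adjusted p = 0.00295) and 0.39 (adjusted p = 0.000591), and Cyp27a1, the sterol 27-hydroxylase, fell by 0.37 (adjusted p = 0.000418) and 0.36 (adjusted p = 0.000483). Abca1 with veh was at -0.15 with the astrocyte covariate (adjusted p = 0.441) and at -0.20 without the 2 libraries richest in astrocyte markers (adjusted p = 0.202). Between the treatments, none of these 24 tested genes of control, uptake and export was called by edgeR or DESeq2 in either strain, while 3 had an unadjusted p under 0.05 in App NL-G-F and 2 in WT mice (edgeR), beside 10.8% and 11.4% of all genes.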

How the data were processed

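RNA-sequencing of CD11b-positive cells was analysed for 12 mice, 3 in each of 4 groups that were taken from the sample titles. The values deposited by the authors are raw counts per gene, made from reads trimmed with Cutadapt, aligned with STAR to GRCm38 and assigned by featureCounts, and no normalization had been applied. The strand setting was not given in the sources used here. Totals ran from 12433402 to 17889654 counts per library, so that 3 counts, the smallest level taken as detected, are 0.168 to 0.241 CPM, which covers counting error only. Symbols came from the GENCODE annotation of GRCm38.

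In R 4.3.3 with edgeR 4.0.16, genes were kept by filterByExpr with a minimum count of 10, libraries were scaled with TMM factors, and contrasts of the 4 group means were tested in a quasi-likelihood model, with Benjamini-Hochberg adjustment over all 15425 genes. The confidence intervals cover 95%. The alternatives included DESeq2 1.42.0 (size factors, Wald test), no filter, at least 10 counts in every library, only the compared groups, marker scores as covariates, an absolute log2 fold change over 1 and the omission of each library. On data simulated for the veh-treated strains, edgeR found 82 of 100 genes changed 2-fold and 53 of 100 changed 1.5-fold, with 5 false calls among 15425 genes. Only these genes were changed there, and none was taken from those with the lowest levels. In the data, 5710 genes were called between these groups, so the shares found need not hold for them. Replicate numbers mark different mice. Figures were drawn with Python 3.11.15 and matplotlib 3.10.9.

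The enzymes and gene lists were chosen with earlier results of these data known. Besides the 8 enzymes, the called genes of each list with the lowest p, at most 4 in a comparison, and Srebf2 and Insig1 were named, and the 5 genes most like the enzymes; others are marked. Some genes that this rule or the lists hold enter the counts but are not reported here by name. Of 13 marker lists, microglia, astrocyte and oligodendrocyte lists are given with the results and the rest under the other observations.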

Additional observations from a re-analysis of the deposited data

How the results depend on the processing

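The strain differences of Hmgcs1, Cyp51 and Dhcr7 kept their direction and stayed called at an adjusted p under 0.05 in each alternative fit, with either treatment. With the added limit of an absolute log2 fold change over 1, Hmgcs1 was not called with either treatment, nor Dhcr7 with veh. For the counts of called enzymes among the 8, other settings gave 3 (astrocyte covariate) and 2 (absolute log2 fold change over 1) with veh in place of 6, and 2 (the same fold limit) with BRICHOS in place of 6. For the 13 further enzymes they gave 5 and 1 with veh, and 0 with BRICHOS under the fold limit. Over all genes, the strain calls with veh went from 5710 to 1916, 2617 and 1601 under these settings, and with BRICHOS from 6560 to 2454 under the fold limit.

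For the treatment effect of App NL-G-F mice, the 1 call over all genes became 25 without a filter, 125 with DESeq2, 0 with only the compared groups, with replicate number as block, with either covariate, without the astrocyte-rich libraries or with the fold limit, and 1673 unadjusted, which included 2 of the 13 further enzymes. In WT mice, 0 became 12 without a filter, 85 with DESeq2, 2 with the oligodendrocyte covariate and 1755 unadjusted, which included 1 of the 8 enzymes. For the contrast between the strains, 1 became 107 without a filter, 240 with DESeq2, 0 with the astrocyte covariate or without the astrocyte-rich libraries, and 2279 unadjusted, which included 1 of the 8 and 1 of the 13.

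Leaving out each library in turn gave 6 to 7 called enzymes of the 8 with veh and 5 to 7 with BRICHOS, and over all genes 0 to 162 for the treatment effect of App NL-G-F mice, 0 to 5 in WT mice and 0 to 88 for the contrast, where the highest values for the first and the last came without App NL-G-F veh mouse 3.

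Reversals were confined to differences that were not called. In App NL-G-F mice, the treatment difference of Fdft1 became 0.12 and 0.16 and that of Sqle 0.19 and 0.21 with the astrocyte covariate and without the astrocyte-rich libraries. In WT mice, Cyp51 became 0.0023 and 0.0082 with the astrocyte and oligodendrocyte covariates, and Dhcr7 5.8e-05 with at least 10 counts in every library and 0.037 with the oligodendrocyte covariate. The contrast of Fdps became -0.22 and -0.12, and that of Fdft1 0.24 and 0.23, under the 2 astrocyte settings. Fdft1 was also at 0.013 with size factors, 0.015 without a filter, 0.016 with DESeq2 and 0.015 with the oligodendrocyte covariate. Without the astrocyte-rich libraries, the contrasts of Hmgcs1 and Idi1 became 0.037 and 0.11. Leaving out single libraries gave, for the strains with BRICHOS, Lss -0.0046 to 0.25, for the treatment effect of App NL-G-F mice Idi1 -0.055 to 0.17 and Fdft1 -0.17 to 0.081, in WT mice Hmgcs1 -0.096 to 0.014, Fdft1 -0.18 to 0.025, Lss -0.011 to 0.10, Cyp51 -0.19 to 0.074 and Dhcr7 -0.095 to 0.023, and for the contrast Idi1 -0.15 to 0.075, Fdps -0.065 to 0.32 and Fdft1 -0.099 to 0.15. The cause of these changes was not tested.

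Replicate numbers did not pair the mice: the correlations of equally numbered libraries' deviations ran from -0.114 to 0.264, with every one over 0.1 in 1 of 6 pairs of groups. In the replicate block fit, 7 of the 8 enzymes were called with veh and 7 with BRICHOS, Fdps (0.65, adjusted p = 0.0406) and Sqle (0.51, adjusted p = 0.0366) being added. The intervals of Fdps, with counts as low as 36 reads, were the widest of the 8 in both strain comparisons. Idi1, with counts as low as 37 reads, had narrower intervals, and the cause of the width was not tested.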

Other observations

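Farnesyl diphosphate also feeds the isoprenoid branch, of which 9 genes were listed. With veh, 2 were higher and 1 was lower in App NL-G-F mice, and with BRICHOS 3 were higher and 1 was lower, with median log2 fold changes of -0.11 and -0.01. Of all genes, 20.1% and 20.8% were called higher and 16.9% and 21.8% lower. Dhdds, a subunit of the enzyme that makes dolichol, rose by 0.42 in both comparisons (adjusted p = 0.000399 and 0.000349), and its partner Nus1 rose by 0.16 (adjusted p = 0.0344) and 0.15 (adjusted p = 0.0373), calls that were lost when single libraries were left out, with the lowest values at 0.13 without WT veh mouse 3 and 0.13 without App NL-G-F BRICHOS mouse 2. Pggt1b, a subunit of the enzyme that attaches geranylgeranyl anchors to proteins, fell by 0.31 (adjusted p = 0.00357) and 0.30 (adjusted p = 0.00318). With veh, the calls of Dhdds (0.37, adjusted p = 0.0745) and Pggt1b (-0.39, adjusted p = 0.0603) were lost with the astrocyte covariate, and that of Pggt1b also without the 2 astrocyte-rich libraries (-0.29, adjusted p = 0.0853). Coq2, an enzyme of ubiquinone synthesis, rose by 0.22 with BRICHOS (adjusted p = 0.0206), or by 0.16 without WT BRICHOS mouse 2 (adjusted p = 0.0845) and by 0.21 without App NL-G-F BRICHOS mouse 2 (adjusted p = 0.0557).

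Of 10 genes of fatty acid synthesis, 5 were higher and 1 was lower in App NL-G-F mice with veh, and 3 were higher and 1 was lower with BRICHOS. The shares of all genes were 20.1% and 20.8% higher and 16.9% and 21.8% lower. Between the treatments, edgeR called 0 of the 10 in either strain, and DESeq2 called 1, lower in App NL-G-F mice, beside 125 of all genes. At an unadjusted p under 0.05 (edgeR), 4 were lower in App NL-G-F and 1 was higher in WT mice, beside 10.8% and 11.4% of all genes. In the contrast between the strains 4 were lower, beside 14.8%. Acaca, the acetyl-CoA carboxylase that makes malonyl-CoA, rose from 21.7 ± 1.34 to 126 ± 11.3 CPM with veh (SD, n = 3, log2 fold change 2.54, adjusted p = 3.11e-07) and by 2.81 with BRICHOS (adjusted p = 1.40e-07). Acly, which supplies cytosolic acetyl-CoA, rose by 0.26 (adjusted p = 0.00212) and 0.39 (adjusted p = 9.02e-05), the former being 0.27 with the astrocyte covariate (adjusted p = 0.101) and 0.24 without the 2 astrocyte-rich libraries (adjusted p = 0.0867). Scd1, a stearoyl-CoA desaturase, fell by 1.16 with veh (adjusted p = 0.00630) and by 0.93 with BRICHOS (adjusted p = 0.0172), the latter becoming 0.48 lower without WT BRICHOS mouse 1 (log2 fold change -0.48, adjusted p = 0.0629). The veh difference of Scd1 was -0.87 with the astrocyte covariate (adjusted p = 0.320) and -1.19 without the 2 astrocyte-rich libraries (adjusted p = 0.114). Fads2, a fatty acid desaturase, rose by 2.05 with veh (adjusted p = 0.00220) and was at -0.10 with BRICHOS (adjusted p = 0.851). Its contrast between the strains was -2.15 (adjusted p = 0.167), which did not pass, and the veh difference was 0.038 with the astrocyte covariate (adjusted p = 0.962) and 1.09 with the 2 libraries richest in astrocyte markers left out (adjusted p = 0.142).

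The summed levels of other marker lists were, in WT and App NL-G-F libraries, 365 to 593 and 154 to 208 CPM for 5 border macrophage markers, 859 to 6775 and 640 to 1971 CPM for 5 choroid plexus markers, 511 to 722 and 366 to 590 CPM for 6 endothelial markers, 174 to 272 and 68.3 to 167 CPM for 7 mural and fibroblast markers, 37.2 to 59.3 and 19.3 to 21.8 CPM for 7 neuron markers, 64.6 to 125 and 124 to 188 CPM for 5 oligodendrocyte precursor markers, 12.4 to 40.3 and 5.50 to 15.0 CPM for 5 ependymal markers, 30.4 to 309 and 11.4 to 32.0 CPM for 5 neutrophil markers, and 61.8 to 277 and 39.0 to 110 CPM for 5 erythroid markers. The 5 T cell markers summed to at most 0.919 CPM. In WT mice, the veh and BRICHOS libraries did not overlap for border macrophage markers (365 to 430 and 487 to 593 CPM). Nor did they for mural and fibroblast (174 to 196 and 212.5 to 272) or ependymal markers (12.4 to 16.2 and 23.4 to 40.3). In App NL-G-F mice this held for endothelial (435 to 590 and 366 to 419) and neuron markers (21.3 to 21.8 and 19.3 to 20.3). It also held there for mural and fibroblast markers (112 to 167 and 68.3 to 110.5). The other ranges of these lists overlapped between the treatments. The part of these other marker lists in the differences of the enzymes was not tested.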
